A study of Trichoderma reesei with 11 samples.

Results

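The 43 gene IDs described here had a lower read level in light than in darkness in the parent strain of Trichoderma reesei and kept a similar level in light and darkness in a strain lacking the kinase gene TR_57513. Trichoderma reesei is a filamentous fungus that degrades plant biomass and is used to produce cellulases. The members were chosen from the group means of the same libraries in a table of 10879 rows. A level is in CPM, the count divided by the library total and multiplied by 1000000, with no correction for gene length. A light ratio is the mean CPM in light plus 0.5 divided by the mean CPM in darkness plus 0.5. A member had a light ratio of at most 0.4 in the parent and of 0.75 to 1.5 in the deletion strain. It also had a level in darkness of at least 5 in the parent, after the addition of 0.5, and a ratio of deletion strain to parent in darkness of 0.667 to 1.5. The first and last 20 IDs of each lettered ID series were passed over. All measures that follow from these 4 group means were used in the choice. They are therefore given as a description, and counts of members that pass a test support nothing.

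Both strains derive from QM6a and both lack mus53, a deletion used because it favours gene replacement at the intended place. The deletion strain lacks TR_57513 in addition, a gene that the series title places in the HOG pathway as a MAP kinase kinase kinase. Mycelium grew on cellulose in minimal medium for 96 h at 28 °C, with light or darkness held throughout. The deletion strain has 3 libraries from light and 3 from darkness. The parent has 3 libraries from light and 2 from darkness. The labels do not say whether libraries of a group came from separate cultures or whether the deletion strain is a single clone. The p-values therefore measure only how these libraries vary, which may be technical.

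The HOG cascade passes a signal from a MAP kinase kinase kinase through a MAP kinase kinase to the MAP kinase Hog1, called Tmk3 in Trichoderma reesei, and is best known in yeast for the response to high osmolarity. In Aspergillus nidulans the same cascade carries a light signal from the phytochrome. In Trichoderma reesei light is sensed by the photoreceptors BLR1 and BLR2 and by the protein ENV1, and light is known to alter the expression of cellulase genes. The file does not pair its IDs with gene names, and 0 of 10879 IDs matched a RefSeq table of 9116 genes, so the members are given by ID, without a function. For the same reason the deleted gene itself was not checked in the counts here.

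Library totals in the light groups were 8924252 to 10184280 counts for the deletion strain and 8020351 to 8770166 for the parent. In darkness they were 13790024 to 18278047 for the deletion strain and 15175573 to 16308391 for the parent. Light and dark libraries carry separate runs of library numbers, so light and library run cannot be told apart, while both strains share 1 run of numbers in light and another in darkness. In such bulk samples, fewer cells of a type and less RNA per cell cannot be told apart either. 1 count equals 0.0547 to 0.125 CPM, depending on the library.

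The members are a minority of the IDs with low levels in parent light. Of 7298 IDs away from the series ends with a level of at least 5 in parent darkness, 622 had a parent light ratio of at most 0.4. In the deletion strain, 395 of these 622 (63.5%) also had a light ratio of at most 0.4, and 106 (17.0%) lay between 0.4 and 0.75. The light ratio of the deletion strain was 0.75 to 1.5 for 87 IDs (14.0%) and above 1.5 for 34. Of the 87, 35 had too low and 9 too high a level in the deletion strain in darkness to be members, which left 43.

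**Figure D1:**
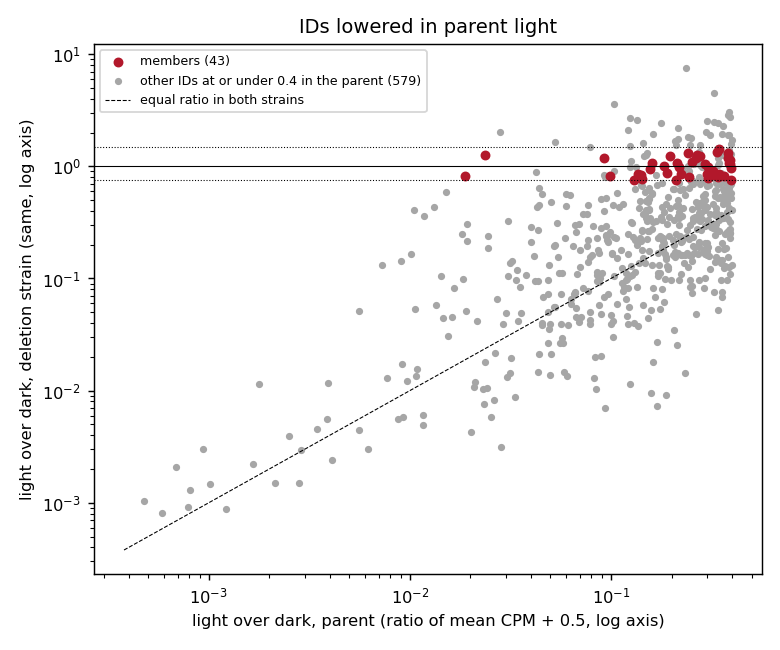
Each point is 1 of the 622 gene IDs with a light ratio of at most 0.4 in the parent (x axis), plotted against its light ratio in the deletion strain (y axis), both on log axes; red points are the 43 members and grey points the other 579 IDs. Most grey points lie below the lower dotted line at 0.75, and the members lie between the dotted lines at 0.75 and 1.5, where the rule places them.

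Across the 43 members, the light ratio of the parent had a median of 0.268 and ran from 0.0187 to 0.396. The median over all 9040 tested IDs was 1.10. In the deletion strain the members' median light ratio was 0.959, with a range of 0.753 to 1.44, against 1.14 over all tested IDs. In light, the deletion strain exceeded the parent by a ratio of 2.11 to 65.2, with a median of 3.96, against 1.06 over all tested IDs. In darkness the ratio of the deletion strain to the parent had a median of 1.04, against 1.03 over all tested IDs.

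The deletion strain in light never overlapped the parent in light. The ranges of these groups were apart for 43 of 43 members, against 50.4% of all tested IDs. In the parent, light and dark ranges were apart for 42 members (62.2% of all tested IDs), and the exception was TrA1970C. In 41 members all 3 parent light libraries lay below the other 8 libraries, which held for 8.78% of all tested IDs. The exceptions were TrA1970C and TrB1868C. In the deletion strain, light and dark ranges were apart for 12 members (64.9% of all tested IDs), and in darkness the strains were apart for 8 (40.4% of all tested IDs).

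All 43 members passed the filter on low counts. By edgeR's quasi-likelihood test at an adjusted p under 0.05 over all tested IDs, 41 members were lower in light in the parent, against 20.4% of all tested IDs. TrA1970C and TrB1868C were not called. In light, 42 members were higher in the deletion strain, against 13.9% of all tested IDs, with TrB1868C again not called. The light effect was more positive in the deletion strain for 35 members by the interaction test, against 5.37% of all tested IDs. This count was 20 without parent replicate 1 in darkness, against 2.17% of the IDs tested in that fit, and 28 with a replicate block, against 3.96%. In darkness 0 members differed between the strains by edgeR's adjusted p, against 12.2% of all tested IDs, and 0 by DESeq2, against 17.9%. At an unadjusted p under 0.05, 3 did, and the share of all tested IDs at that p was not computed. A light effect in the deletion strain was called for 5 members, all lower in light, against 22.7% of all tested IDs. These were TrA1685C, TrB0240W, TrB1563C, TrB1733C and TrC0967C. There were 3 such calls without deletion replicate 2 in darkness, against 20.03% of the IDs tested in that fit. Without deletion replicate 1 or 2 in light there were also 3, against 17.8% and 17% of the IDs tested. There were 8 without parent replicate 1 or 3 in light, against 23.6% and 22.7%. With only the groups compared, 11 members were lower in light, against 23.5% of the IDs tested, and by DESeq2 9 were, against 24.2%. Scaled by library totals alone, 4 members were called, 2 higher and 2 lower in light, against 34.5% and 17.2%. Since the rule used these contrasts, nothing is read from the counts.

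**Figure D2:**
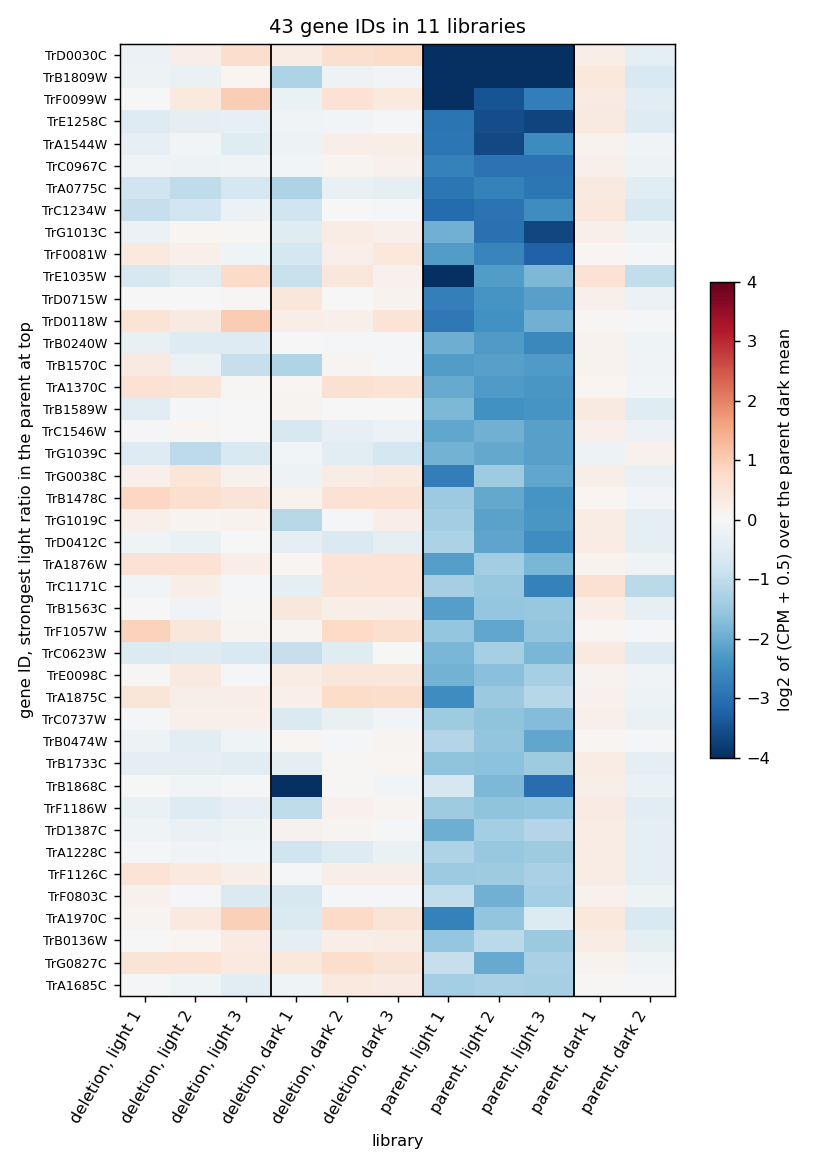
Each row is 1 of the 43 members and each column 1 of the 11 libraries; the colour is the log2 of the level (CPM + 0.5) over the mean of the parent in darkness, and colours end at a log2 of 4 in either direction. The 3 parent light columns are blue in nearly every row, while the deletion strain in light and in darkness stays close to the parent in darkness, apart from TrB1868C in deletion library 1 in darkness.

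In 4 members the light ratio of the parent was at most 0.1, and 9 more lay above 0.1 up to 0.2. A further 12 lay above 0.2 up to 0.3, and 18 above 0.3. The deepest decrease in parent light was that of TrD0030C. TrD0030C had 34.5, 48.7 and 66.2 CPM in the deletion strain in light, against 0.350, 0.125 and 0.342 CPM in the parent in light. These parent values are 3, 1 and 3 counts, so the ratio of 65.2 between the strains in light depends on the 0.5 added to both means. In darkness TrD0030C had 50.6, 64.5 and 67.9 CPM in the deletion strain and 49.5 and 32.0 CPM in the parent.

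TrB1809W averaged 109 ± 15.2 CPM in the deletion strain in light and 2.31 ± 0.983 CPM in the parent in light (SD, n = 3 each). Its libraries held 103, 98.0 and 127 CPM in the deletion strain in light, against 1.28, 3.24 and 2.39 CPM in the parent in light. In darkness they held 50.1, 103 and 109 CPM in the deletion strain and 160.3 and 77.0 CPM in the parent. The dark groups overlapped, and each dark library of either strain lay above every parent light library.

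TrF0099W had 54.9, 70.9 and 107 CPM in the deletion strain in light, against 1.63, 4.49 and 7.53 CPM in the parent in light. In darkness it had 44.9, 81.1 and 70.8 CPM in the deletion strain and 69.0 and 39.9 CPM in the parent. The parent light libraries differed more among themselves than in TrE1258C. TrE1258C had 85.8, 94.4 and 98.4 CPM in the deletion strain in light, against 15.9, 10.1 and 9.12 CPM in the parent in light. Its dark values were 111, 114 and 115 CPM in the deletion strain and 159 and 86.5 CPM in the parent, so that the parent libraries in darkness lay on either side of the deletion strain.

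TrA1544W had 48.8, 56.8 and 43.1 CPM in the deletion strain in light, against 7.81, 4.49 and 10.4 CPM in the parent in light. In darkness it had 52.7, 72.8 and 71.7 CPM in the deletion strain and 67.3 and 54.8 CPM in the parent. Its light ratio in the deletion strain, 0.756, was among the nearest to the lower limit of the rule. For all of these members the parent in light stood apart from the other 3 groups.

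**Figure D3:**
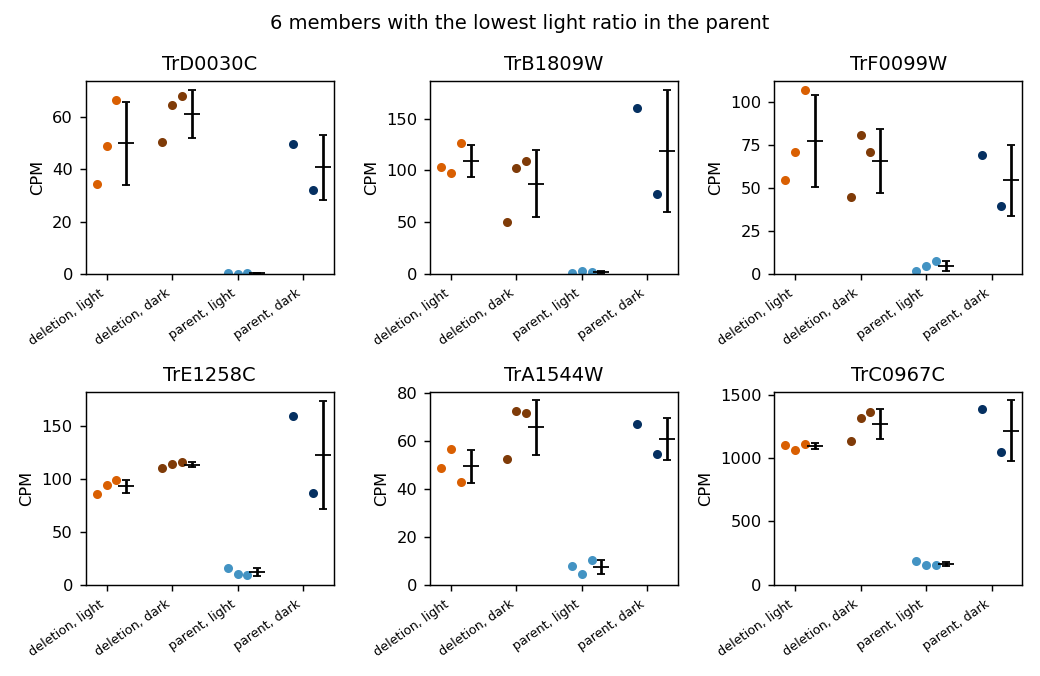
Points are the CPM of single libraries, from left to right for the deletion strain from light and darkness and the parent from light and darkness, for the 6 members with the lowest light ratio in the parent; the bar beside them is the mean with its SD (n = 3, or 2 for the parent in darkness). In each panel the 3 parent light points lie near the bottom of the axis and below all other points.

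TrC0967C and TrB1478C held the most reads of all members. TrC0967C had 1107, 1066 and 1108 CPM in the deletion strain in light, against 186, 156 and 155 CPM in the parent in light. In darkness it had 1138, 1316 and 1364 CPM in the deletion strain and 1388 and 1047 CPM in the parent. Here the light libraries of each strain differed little among themselves, and the light ratio was 0.859 in the deletion strain and 0.137 in the parent.

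TrB1478C had 1922, 1725 and 1559 CPM in the deletion strain in light, against 391, 258 and 211 CPM in the parent in light. Its dark values were 1186, 1623 and 1621 CPM in the deletion strain and 1151 and 1008 CPM in the parent. Unlike TrC0967C, it was also higher in the deletion strain in darkness, in each of the 3 libraries, with a ratio of 1.37. Its light ratio was 1.18 in the deletion strain and 0.266 in the parent.

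TrD0715W had 442, 428 and 452 CPM in the deletion strain in light, against 64.9, 83.4 and 96.8 CPM in the parent in light. In darkness it averaged 504 ± 78.6 CPM in the deletion strain (SD, n = 3) and 434 ± 92.8 CPM in the parent (SD, n = 2). TrC1234W had 153, 174 and 248 CPM in the deletion strain in light, against 34.7, 37.9 and 52.1 CPM in the parent in light. In darkness TrC1234W spread widely in both strains, with 171, 296 and 286 CPM in the deletion strain and 396 and 192 CPM in the parent. TrA1228C differed less between the strains, with 144 ± 4.19 CPM in the deletion strain in light and 59.2 ± 6.53 CPM in the parent in light (SD, n = 3 each). In darkness it had 88.9, 109.6 and 129 CPM in the deletion strain and 193 and 118 CPM in the parent.

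TrB1868C was the least uniform member. It had 257, 239 and 246 CPM in the deletion strain in light, against 161, 73.2 and 30.8 CPM in the parent in light. In darkness it had 10.8, 268 and 237 CPM in the deletion strain and 300.2 and 215 CPM in the parent. The single value of 10.8 CPM, in deletion replicate 1, was below every parent light value. Across the 11 libraries TrB1868C had a Pearson correlation of 0.455 with the mean log2 profile of the other members. The other 42 members had correlations of 0.832 to 0.991 with a median over all members of 0.955, a description to which the choice by group means contributes.

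Summed over the 43 members, reads made up 0.542% to 0.568% of the libraries of the deletion strain in light and 0.0994% to 0.128% of those of the parent in light. In darkness the shares were 0.459% to 0.603% in the deletion strain and 0.430% to 0.591% in the parent. TrC0967C and TrB1478C together held 51.3% of the sum in the deletion strain in light and 40.8% in the parent in light. Without both, the sum averaged 2687 ± 86.3 CPM in the deletion strain in light and 656 ± 38.6 CPM in the parent in light (SD, n = 3 each). In darkness it averaged 2772 ± 439 CPM in the deletion strain (SD, n = 3) and 2809 ± 795 CPM in the parent (SD, n = 2). With or without both members, the parent in light had the lowest sum of the 4 groups, and the ranges of the other groups overlapped.

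The rule used group means and not the deviations of single libraries, but the parent dark mean rests on 2 libraries. An ID raised in either of them meets the limit on the parent's light ratio more easily. The deviations are therefore not free of the choice. The 579 other IDs lowered in parent light were not compared. In darkness the members deviated together. Of the 43 members, 42 were higher in parent library 1 than in parent library 2, with TrG1039C as the exception, whereas 63.5% of the 7298 IDs with a level of at least 5 were higher in library 1. In the deletion strain in darkness, 35 of 43 members lay below their group mean on the log2 scale in library 1, and 8 above it, where 39.3% of the 7298 IDs lay above. The mean deviation of the members was -0.38 in deletion library 1 in darkness and 0.27 in parent library 1 in darkness, on a log2 scale, against -0.03 and 0.00 over the 7298 IDs. With TMM-scaled totals, which align the bulk of the IDs between libraries, the numbers were 42 of 43 against 53.8% in the parent, and 34 of 43 below the mean against 53.7% in the deletion strain. Deletion library 1 in darkness and parent library 2 in darkness thus had the lowest summed levels of the dark libraries, 4591 and 4302 CPM, and the other dark libraries had 5910 to 6032 CPM. In light no library deviated in such a way, and 19 to 25 members lay above the group mean in each light library.

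**Figure D4:**
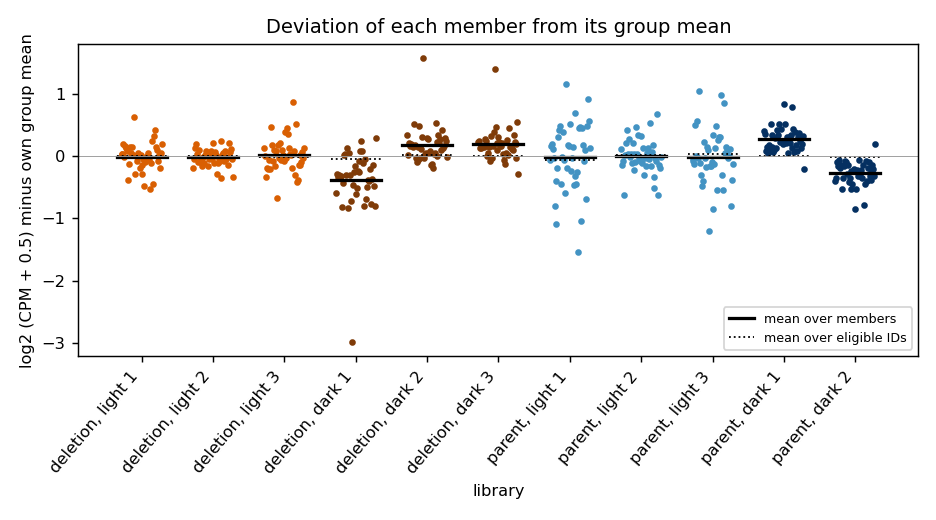
Each point is 1 member's log2 (CPM + 0.5) in a library minus its mean in that library's group; solid bars are means over the 43 members and dotted bars means over the 7298 IDs with a level of at least 5 in parent darkness. The members lie mostly above 0 in parent library 1 and deletion libraries 2 and 3 in darkness and mostly below 0 in parent library 2 and deletion library 1 in darkness, while the light libraries centre on 0.

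The spread between replicates was larger for the members than for the 7298 IDs in each group. These sets were not matched for level, and few counts alone widen the spread. The rule holds the members low in parent light, where 2 of them had under 10 counts in every library. The median coefficient of variation was 11.6% for members and 7.14% for those IDs in the deletion strain in light, and 28.9% and 10.9% in the parent in light. In darkness it was 19.5% for members and 12.2% for those IDs in the deletion strain, and 23.4% and 11.2% in the parent. Without deletion replicate 1 in darkness, the medians in that group were 4.86% for members and 4.87% for the 7298 IDs, so the larger spread of the members there came with that library. Within the parent in light, the widest range was that of TrE1035W, with 0, 1.62 and 2.39 CPM.

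The choice was repeated with libraries left out, so that the same ratios could be read in libraries that the rule had not used. This was decided after the data were seen. Each ratio read in this way rests on a single library per group. The members moved together in the dark libraries, so the IDs are not replicates and the counts are a description. In darkness, library 1 was low for most members in the deletion strain and high for most in the parent. Such a shift raises the light ratio of the deletion strain and lowers that of the parent. Chosen without library 1 of every group, 28 IDs met the rule, 14 of them members. In the 4 libraries left out, the deletion strain had the higher light ratio for 28 of 28, against 58.3% of the IDs with a level of at least 5 in the parent dark library used for the choice. Their median light ratio there was 1.54 in the deletion strain and 0.206 in the parent, against 1.203 and 1.09 over those eligible IDs. Chosen without library 2 of every group, 51 IDs met the rule, 30 of them members. In the libraries left out, the light ratio was higher in the deletion strain for 50 of 51, against 52.0% of eligible IDs. The medians were 0.861 in the deletion strain and 0.390 in the parent, against 1.145 and 1.137 over eligible IDs.

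The exact limits of the rule were met less often than the direction. In the libraries left out, all limits were met by 3 of the 28 IDs and 11 of the 51. The share of eligible IDs that met all limits was not computed, so these counts have no background. The limit on the parent's light ratio was met by 22 of 28 and 26 of 51, against 9.98% and 8.21% of eligible IDs. The limits on the deletion strain's light ratio were met by 8 of 28 and 37 of 51, against 52.4% and 63.6% of eligible IDs. The limits on the ratio of the strains in darkness were met by 11 of 28 and 26 of 51, against 69.8% and 79.1% of eligible IDs. The median of that ratio was 0.576 in libraries 1, where deletion library 1 is set against the higher parent library, and 1.47 in libraries 2, where the lower parent library is used. Leaving out a single library at a time gave lists of 31 to 54 IDs, the shortest without parent replicate 1 in darkness, and 14 of the 43 members were in all 11 such lists. Among them were TrC0967C, TrD0715W, TrE1258C, TrA1370C and TrA1876W. TrA1685C and TrB1868C were in 6 of the 11, the fewest.

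Several IDs lay close to the limits. TrA1685C and TrG0827C were the last inside the limit on the parent's light ratio, at 0.396 and 0.394, and TrF1137W and TrD0899W were the first outside it, at 0.404 and 0.405. On the lower limit of the deletion strain's light ratio, TrA1685C and TrA1544W lay inside at 0.753 and 0.756, and TrB0914W and TrA0267W outside at 0.746 and 0.744. TrA0775C and TrB1868C, both at 0.669, were just inside the lower limit in darkness.

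Outside the list, the IDs whose log2 level over the 11 libraries correlated best with the mean profile of the members were TrB1693W, TrA1903C and TrE0277C, each with a Pearson r of 0.980. TrA1903C missed the rule by its light ratio of 0.636 in the deletion strain, with 86.6 CPM in light and 136.5 CPM in darkness, against 6.59 and 160.6 CPM in the parent. In TrB1693W and TrE0277C too the parent in light was the lowest group, with light ratios of 1.01 and 0.987 in the deletion strain and 0.552 and 0.590 in the parent.

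Members were found in all 7 lettered series, with 3 in series E to 10 in series B. They made up 0.335% to 0.909% of the IDs with a level of at least 5 in parent darkness, lowest in E and highest in F. Of the 43 IDs, 25 end in C and 18 in W, a share of C of 58.1% against 50.5% of those IDs. No source used here says what the letters stand for. A single pair of members, TrA1875C and TrA1876W, had consecutive serial numbers. These are 4.65% of the members, where 0.795% of the eligible IDs directly adjoin a member. Within 10 serial numbers, 6 members (14.0%) had another member, against 7.22% of eligible IDs.

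TrA1875C and TrA1876W had like profiles. TrA1875C had 121, 103 and 105 CPM in the deletion strain in light, against 14.9, 30.5 and 39.2 CPM in the parent in light. TrA1876W had 97.8, 98.6 and 79.7 CPM in the deletion strain in light, against 13.9, 24.9 and 18.2 CPM in the parent in light. In darkness TrA1875C averaged 128 ± 25.4 CPM in the deletion strain (SD, n = 3) and 86.7 ± 15.9 CPM in the parent (SD, n = 2). For TrA1876W the dark means were 87.8 ± 15.7 CPM in the deletion strain (SD, n = 3) and 66.0 ± 8.86 CPM in the parent (SD, n = 2). Neighbouring genes can share reads where they overlap, and no source used here says whether counting used strand.

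No member was chosen by the values of the IDs next to it. Those IDs were put to the same rule, however, and any that met it counted as members. The neighbours counted here are therefore IDs that were not chosen, and their shares are not free of the choice. Of 73 tested IDs that directly adjoin a member by serial number, 15 (20.5%) had a light effect more positive in the deletion strain by edgeR's interaction test at an adjusted p under 0.05, against 5.37% of all tested IDs. In parent light 25 of the 73 (34.2%) were lower by the same test, against 20.4%, and 22 (30.1%) were higher in the deletion strain in light, against 13.9%. Up to 3 serial numbers away, 66 of 203 IDs were lower and 20 higher in parent light, where 20.4% and 18.3% of all tested IDs were. Scaled by library totals alone, 55 were lower and 37 higher, against 15.9% and 27.2% of all IDs tested in that fit. Up to 3 serial numbers from a member, 22 of 203 IDs (10.8%) passed the interaction test in the same direction, and up to 10 serial numbers 51 of 664 (7.68%). At a distance of exactly 2 or 3 serial numbers, the shares were 6.06% and 4.41%, near that of all tested IDs. Farther out they did not fall steadily, with 10.4% at a distance of 4, 12.5% at 7 and 0% at 10. Among distances of 1 to 10, the share was highest for direct neighbours. No test of these shares against the background was run. Reads shared with the member were not tested as a source of its neighbour's profile. Within 3 serial numbers, 32 of the 203 IDs passed the interaction test in either direction, against 10.8% of all tested IDs. Without parent replicate 1 in darkness this number was 13, against 4.18% of all IDs tested in that fit. With deletion replicate 2 or 3 in light left out it was 20 in both fits, against 6.07% and 6.03%. Without parent replicate 2 in light it was 21, against 6.53%.

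**Figure D5:**
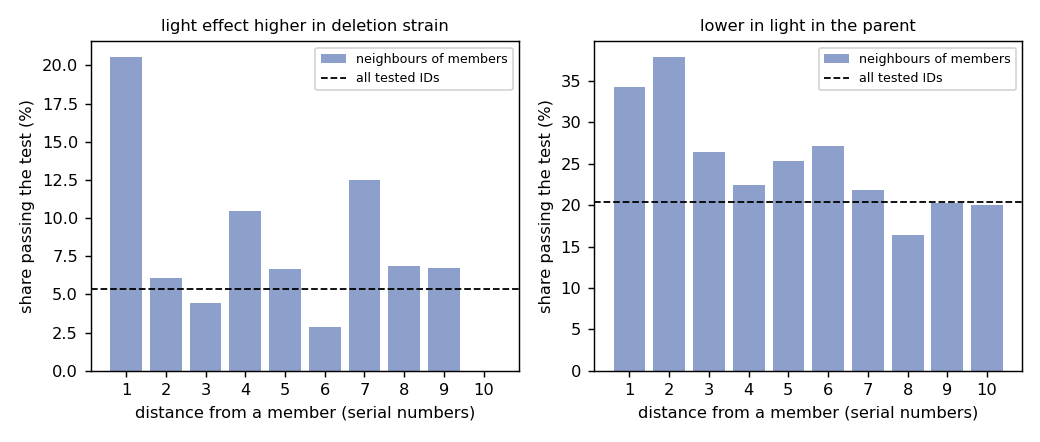
Bars give the share (%) of tested IDs at each distance in serial numbers from a member that passed the interaction test with a more positive light effect in the deletion strain (left) or were lower in light in the parent (right), by edgeR at an adjusted p under 0.05; dashed lines are the shares over all tested IDs, 5.37% and 20.4%. The left panel is highest at a distance of 1, at 20.5%, and the right panel at distances of 1 and 2, at 34.2% and 37.9%.

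The direct neighbours with the smallest adjusted p in the interaction test were TrA1371W, TrB1810C, TrC0736C and TrA1543C. These, and the runs below, were chosen after their values were seen. TrA1371W, next to member TrA1370C, had 67.8, 67.2 and 54.1 CPM in the deletion strain in light, against 4.90, 4.86 and 9.12 CPM in the parent in light. In darkness it averaged 40.8 ± 3.46 CPM in the deletion strain (SD, n = 3) and 31.6 ± 3.33 CPM in the parent (SD, n = 2). It was the first ID beyond the upper limit of the rule, with a light ratio of 1.54 in the deletion strain (log2 interaction 2.90, edgeR adjusted p = 0.00124). TrA1370C itself had 43.1 ± 8.20 CPM in the deletion strain in light and 6.78 ± 0.901 CPM in the parent in light (SD, n = 3 each).

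TrB1810C, next to TrB1809W, differed from its neighbour. It averaged 51.7 ± 0.552 CPM in the deletion strain in light and 16.6 ± 2.47 CPM in the parent in light (SD, n = 3 each). In darkness it averaged 9.04 ± 1.59 CPM in the deletion strain (SD, n = 3) and 14.0 ± 5.44 CPM in the parent (SD, n = 2). Its level was thus higher in light than in darkness in the deletion strain, while the parent had like levels in both (log2 interaction 2.22, edgeR adjusted p = 0.00252). TrC0736C, next to TrC0737W, averaged 44.3 ± 7.004 CPM in the deletion strain in light and 13.0 ± 4.60 CPM in the parent in light (SD, n = 3 each). Its dark means were 77.4 ± 9.80 CPM in the deletion strain (SD, n = 3) and 125 ± 33.8 CPM in the parent (SD, n = 2), so it was low in light in both strains and lower in the parent (log2 interaction 2.41, edgeR adjusted p = 0.00351). TrA1543C, next to TrA1544W, had few reads, with 6.23 ± 0.256 CPM in the deletion strain in light and 0.193 ± 0.178 CPM in the parent in light (SD, n = 3 each). The parent in light held 5 counts of it in all (log2 interaction 4.38, edgeR adjusted p = 0.00606).

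Around TrF0803C, 4 consecutive IDs had a light ratio of 1.003 to 1.40 in the deletion strain and of 0.242 to 0.478 in the parent. The member TrF0803C had 13.5, 11.2 and 7.84 CPM in the deletion strain in light, against 5.83, 2.74 and 4.33 CPM in the parent in light. TrF0804W had 480.4, 434 and 372 CPM in the deletion strain in light, against 233, 159.8 and 113 CPM in the parent in light. In darkness TrF0804W averaged 428 ± 110.4 CPM in the deletion strain (SD, n = 3) and 700.02 ± 214 CPM in the parent (SD, n = 2), so its dark level in the deletion strain was too low for the rule. TrF0802C averaged 243 ± 19.3 CPM in the deletion strain in light and 140.5 ± 36.1 CPM in the parent in light (SD, n = 3 each). TrF0801C averaged 331 ± 51.8 CPM in the deletion strain in light and 175 ± 60.7 CPM in the parent in light (SD, n = 3 each). The member TrF0803C itself did not pass the interaction test. The test passed for TrF0804W (log2 2.01, edgeR adjusted p = 0.0161), TrF0802C (log2 1.81, edgeR adjusted p = 0.0106) and TrF0801C (log2 1.48, edgeR adjusted p = 0.0392). Without parent replicate 1 in darkness TrF0804W and TrF0802C missed the threshold (highest edgeR adjusted p among 17 alternatives 0.0795 and 0.0519). TrF0801C missed it in 10 of 17 alternatives, with an adjusted p of up to 0.145, and without any one library other than parent replicate 1 in light or deletion replicate 3 in darkness.

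The member TrC1546W lay in a second run of IDs with low levels in parent light. It had 29.0, 31.5 and 29.5 CPM in the deletion strain in light, against 6.76, 7.61 and 6.27 CPM in the parent in light. TrC1544W had 48.8, 49.0 and 56.7 CPM in the deletion strain in light, against 2.80, 6.48 and 9.81 CPM in the parent in light (log2 interaction 3.21, edgeR adjusted p = 0.00479). Its dark means were 92.6 ± 20.1 CPM in the deletion strain (SD, n = 3) and 109 ± 7.54 CPM in the parent (SD, n = 2). TrC1544W was thus lower in light in the deletion strain too, with a light ratio of 0.558, against 0.0625 in the parent. TrC1543C and TrC1547W had 0 counts in the 3 parent light libraries and 44 and 46 counts in the 3 libraries of the deletion strain in light. In darkness TrC1543C averaged 6.27 ± 1.04 CPM in the deletion strain (SD, n = 3) and 7.04 ± 1.89 CPM in the parent (SD, n = 2), so it was lower in light in the deletion strain too, with a light ratio of 0.302. TrC1547W averaged 3.23 ± 1.56 CPM in the deletion strain in darkness (SD, n = 3) and had 51.6 and 13.8 CPM in the parent in darkness, a strain ratio in darkness of 0.112. TrC1545W, between them, had at most 2.63 CPM in any library.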

How the data were processed

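RNA was sequenced from mycelium in 11 libraries, grouped by the titles in the labels. The deposited values were raw counts per gene ID, whole numbers with no normalization by the authors. Per the submitters' processing notes reads were aligned with HISAT2 2.2.1, and per the labels' protocols libraries were stranded and depleted of ribosomal RNA. No source used here gives the counting settings for strand or shared reads.

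Ratios used CPM from library totals with 0.5 added to group means. Tests used edgeR 4.0.16 (R 4.3.3) with TMM scaling, filterByExpr (9040 IDs kept), a robust quasi-likelihood fit of all 11 libraries with 4 group means, and Benjamini-Hochberg adjustment over all tested IDs in each of 5 comparisons. The fitting steps were also tested on simulated counts, of which no value is reported. Alternatives were other scalings and filters, DESeq2 1.42.0, only the groups compared, a replicate block and the omission of each library. TMM scaling shifts the median log2 light ratio of all tested IDs by -0.20 in the deletion strain and -0.14 in the parent.

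The members and lists were chosen with earlier results of these data known. Members named in the text were the 6 with the lowest parent light ratio, the 6 with the highest level in parent darkness, the longest run, those nearest the limits and the 3 most similar IDs. Other IDs are named as exceptions or were chosen after their values were seen. Groups of gene functions could not be looked up. Intervals for counting error were not used, since values are given per library.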

Additional observations from a re-analysis of the deposited data

Results flagged for a closer look

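The light effect differed between the strains for 35 members by edgeR's interaction test. The rule chose them for that difference, so this is a description. Neighbours up to 3 serial numbers from a member were put to the same rule and not chosen. Among them it differed for 32 of 203 tested IDs, against 10.8% of all tested IDs. In 22 of them the effect was more positive in the deletion strain, against 5.37%.

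The named neighbours with such a difference had log2 interactions of 2.90 for TrA1371W, 2.22 for TrB1810C, 2.41 for TrC0736C and 4.38 for TrA1543C. In the run around TrF0803C the values were 1.48 for TrF0801C, 1.81 for TrF0802C and 2.01 for TrF0804W. In the run around TrC1546W they were 3.21 for TrC1544W, 7.31 for TrC1543C and 10.57 for TrC1547W. TrC1543C and TrC1547W were at 0 counts in all parent light libraries, so the size of these last 2 values is set by the prior count and bounds nothing. Their edgeR adjusted p was 0.00402 and 0.0247, and TrC1547W missed the threshold in 4 of 17 alternatives, with the replicate block and without deletion replicate 3 in darkness, deletion replicate 3 in light or parent replicate 1 in darkness.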

How the results depend on the processing

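Whether library number pairs these samples was not settled. Of 15 same-numbered pairs of libraries, 4 had deviations that correlated above 0.1 (range -0.41 to 0.29). Differently numbered pairs were not compared, so these values cannot exclude pairing. With the replicate block the interaction was called for 28 members and 22 flanking IDs, against 7.92% of all tested IDs. A light effect in the deletion strain was called there for 3 members, all lower in light, against 20.4%. Calls for light in the deletion strain, all lower in light, were also 3 with upper-quartile scaling, against 20.3%. They were 11 with only the groups compared and 9 with DESeq2, against 23.5% and 24.2%. Flanking IDs within 1 and 10 serial numbers, in sets of 73 and 664, gave 16 and 92 interaction calls. These are 21.9% and 13.9%, against 10.8% of all tested IDs. Calls for light in the parent in either direction were 28 and 274. These are 38.4% and 41.3%, near the 38.7% of all tested IDs. Within 10 serial numbers, 6 members had another member. Choosing without library 1 of every group gave 28 IDs. The next ranges leave out a library at a time, other than a parent dark one. Member calls for the interaction were 27 to 35, against 2.96% to 6.76% of tested IDs in that direction. Light in the deletion strain gave 3 to 8, against 17% to 23.6% lower. Light in the parent gave 40 to 42, against 16.8% to 24.4% lower. Genotype in light gave 36 to 42, against 8.68% to 17.7% higher. Genotype in darkness gave 0, against 7.71% to 15.9% in either direction. Interaction calls were 20 to 37 of 196 to 205 flanking IDs, against 6.03% to 13.1%. Light in the parent was called for 71 to 97 of them, against 31.9% to 45.0%. With any library left out, lists held 31 to 54 IDs. The median coefficient of variation was 8.93% to 12.6% for deletion libraries from light, 4.86% to 24.3% for those from darkness and 19.2% to 28.9% for parent libraries from light. The summed light ratio with a library left out was 0.921 to 1.05 in the deletion strain and 0.188 to 0.258 in the parent. With TMM-scaled totals and all libraries it was 0.871 in the deletion strain and 0.196 in the parent. TMM-scaled CPM gave 34 members, 25 of them among the 43. For 13 members the light ratio stayed higher in the deletion strain in all 182 values under the alternatives. These were the 6 with the lowest parent light ratio, the 6 with the highest level in parent darkness and the consecutive pair, 1 being in 2 of these lists. The rule chose them for that difference, and the alternatives used the same libraries. The direction was thus nearly fixed in advance, and these values support nothing. The other members named were not rerun in this way.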
